A study of Mus musculus with 35 samples.

Results

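Solute carriers are membrane proteins that move amino acids, sugars, nucleosides, ions, metals, lipids and metabolites across the plasma membrane and the membranes of organelles. They are named by a family number and a member number, and each family groups carriers of related sequence. In blood-forming cells they supply the amino acids, nucleosides and phosphate that dividing cells use, exchange ADP for ATP across the inner mitochondrial membrane, and in some lineages handle a specialised cargo such as serotonin or histamine. The genes described here were those of the RNA-seq table whose name has the form Slc, a family number, the letter a and a member number, with Slc4a1, Slc11a2, Slc25a37, Slc25a38 and Slc40a1 left out. These were 173 of the 11982 gene names listed. The rule used names alone. It also took in 4 genes that are named after a carrier but encode no carrier, Slc2a4rg-ps, Slc4a1ap, Slc9a3r1 and Slc7a6os, and all 173 are named carriers in the counts that follow.

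The RNA came from hematopoietic stem and progenitor cells (HSPCs) of mouse bone marrow, from 2 wild-type (WT) libraries and 2 JMJD1B-/- libraries. JMJD1B, encoded by Kdm3b, is a histone demethylase, and the comparison asks which genes change in HSPCs when it is lost. The JMJD1B-/- mice carry a gene-trap allele, which is carried by every cell of the animal and not by HSPCs alone. Both genotypes were on a mixed 129P2xC57BL/6J background. The study used adult mice of both sexes as littermates, and no agent was given. The study's methods give 1 range of ages for all its mice, and the age, the sex and the number of mice behind each single library are not given in the sources used here, so the p-values measure only the spread between these libraries.

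The values are RPKM, read numbers scaled to the length of the transcript and to the size of the library. Depth was estimated from the step between low values, at 17500000 reads for WT replicate 1, 24600000 for WT replicate 2, 6110000 for JMJD1B-/- replicate 1 and 21000000 for JMJD1B-/- replicate 2. On a transcript of 1 kb, 3 reads would be worth 0.491 RPKM in JMJD1B-/- replicate 1 and between 0.122 and 0.171 in the other libraries, for counting error only. In the WT libraries Kdm3b itself read 30.98 and 24.29 RPKM, and in JMJD1B-/- it read 4.00 and 4.63, with an adjusted p of 0.0314 by limma. Xist, which is transcribed from an inactive X chromosome, read 332 RPKM in WT replicate 2 and at most 0.0510 in the other libraries. Markers of other blood cells moved with genotype. A gene with an unadjusted p under 0.05 by limma on log2(RPKM + 0.1) is named called throughout, which held for 6.33% of all genes in the lower and 3.81% in the higher direction, and 20.1% of all genes were above both WT libraries in JMJD1B-/-. The summed RPKM of 11 erythroid markers ran from 581 to 871 in WT and from 1629 to 2729 in JMJD1B-/-, with all 11 above both WT libraries. That of 8 basophil and mast cell markers ran from 509 to 580 in WT and from 50.8 to 118 in JMJD1B-/-, and 7 of the 8 were called lower. The 7 listed megakaryocyte markers, of which 5 were called lower, summed to between 621 and 685 in WT and between 267 and 377 in JMJD1B-/-. Of 9 granulocyte markers tested, 6 were called lower, among them Mpo, and 2 higher, S100a8 and S100a9, and the sum of the 11 listed ran from 206 to 298 in WT and from 57.5 to 91.1 in JMJD1B-/-. Of 12 stem and progenitor markers 5 were called lower, among them Cd34 and Flt3, and none higher, with sums of 489 and 451 in WT and 302 and 431 in JMJD1B-/-. The T and NK cell markers summed to 131 in JMJD1B-/- replicate 1 and to between 27.1 and 42.4 in the other libraries, with 3 called higher and 1 lower of 10. Of the monocyte markers 3 of 8 were called lower, and of the stroma and endothelium markers 2 of 7, with none higher in either. In bulk RNA, fewer cells of a type and less RNA per cell cannot be told apart, and the part of these markers in the values below was not tested.

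The window around the annotated start is shown for the carriers with the lowest p in each direction that have 1 window in the RefSeq promoter table, Slc6a20a among the genes that were higher and Slc6a4 and Slc7a8 among those that were lower. Each window holds 250 bases before and 50 after the start and is written 5′ to 3′ on the gene's own strand in GRCm38.p6. Capitals mark the GC box, GGGCGG or its reverse complement CCGCCC. The Slc6a20a window lies at chr9:123678783-123679082, minus strand, that of Slc6a4 at chr11:76998347-76998646, plus strand, and that of Slc7a8 at chr14:54781837-54782136, minus strand.
Slc6a20a: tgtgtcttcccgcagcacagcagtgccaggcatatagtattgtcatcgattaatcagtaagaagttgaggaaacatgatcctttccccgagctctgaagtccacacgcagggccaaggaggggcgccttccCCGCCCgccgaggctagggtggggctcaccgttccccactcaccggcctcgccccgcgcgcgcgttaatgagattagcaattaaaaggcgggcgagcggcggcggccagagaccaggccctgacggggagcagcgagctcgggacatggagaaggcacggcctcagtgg
Slc6a4: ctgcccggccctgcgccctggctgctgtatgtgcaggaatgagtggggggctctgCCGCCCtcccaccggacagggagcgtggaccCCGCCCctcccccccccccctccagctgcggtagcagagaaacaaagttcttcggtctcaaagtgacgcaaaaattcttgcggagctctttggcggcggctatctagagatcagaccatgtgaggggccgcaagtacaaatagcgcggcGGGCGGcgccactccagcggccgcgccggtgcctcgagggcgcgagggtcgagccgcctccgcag
Slc7a8: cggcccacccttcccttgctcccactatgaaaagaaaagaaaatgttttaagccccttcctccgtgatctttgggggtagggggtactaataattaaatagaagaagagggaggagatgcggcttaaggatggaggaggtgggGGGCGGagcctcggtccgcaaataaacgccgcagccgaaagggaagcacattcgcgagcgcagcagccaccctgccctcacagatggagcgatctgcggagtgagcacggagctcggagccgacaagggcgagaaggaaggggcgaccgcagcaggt
All 3 windows hold a GC box, whichever way the gene moved. Of 131 carriers with a window, 75.6% held one, against 64.0% of the 8496 listed genes with a window and 35.9% of all 27025 promoters of the table. It was found in 6 of 8 carriers called higher and in 7 of 10 called lower. The GATA motif AGATAA, also searched on both strands, was in 2 of the 10 and in none of the 8, and in 6.87% of the carriers against 6.67% of the listed genes. The E-box CACGTG was in 16.0% of the carriers and 10.5% of the listed genes, and the TATA motif TATAAA in 4.58% and 6.78%. The amino acid response motif TGATGCAA was in 2.29% of the carriers and 0.671% of the listed genes. The former share rests on 3 carriers, none of them called. None of these motifs shares its letters with another of them in the printed windows. These shares describe letters in a window and were not tested.

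The carriers were for the most part low to middling transcripts in WT HSPCs. Their mean RPKM over the WT libraries had a median of 5.49, against 10.3 over all listed genes, with 77 of 173 under 5, 22 over 20 and 2 over 100. The summed RPKM of the 173 genes was 1819 and 1810 in the WT libraries, 1651 in JMJD1B-/- replicate 1 and 2114 in JMJD1B-/- replicate 2, so that the genotypes overlapped. The Slc25a carriers, classed here by family as mitochondrial carriers, took the largest part of that sum in every library, between 31.3% and 35.3%. Amino acid and peptide carriers took between 16.6% and 18.7%.

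At the head of the list stood Slc25a5, an exchanger of ADP and ATP in the mitochondrial inner membrane, with 137 and 142 RPKM in WT and 159 and 205 in JMJD1B-/-. Slc25a3, which carries phosphate into mitochondria, followed with 130 and 141 RPKM in WT and 114 and 168 in JMJD1B-/-. Slc25a5 was higher in either JMJD1B-/- library than in WT, with a log2 fold change of 0.37 ± 0.19 (SE) and an unadjusted p of 0.0919, while Slc25a3 overlapped. The value of Slc25a5 was 0.56, with a call, when JMJD1B-/- replicate 1 was left out, and 0.19 when JMJD1B-/- replicate 2 was. The urea transporter Slc14a1, which carries the Kidd blood group in people, read 49.3 and 49.6 RPKM in WT and 37.3 and 65.3 in JMJD1B-/-. Its JMJD1B-/- values lay on either side of WT. Slc20a1, a plasma membrane phosphate importer, read 42.4 and 53.9 RPKM in WT and 48.8 and 55.5 in JMJD1B-/-. Slc38a2, which takes up neutral amino acids such as alanine and glutamine, read 43.9 and 47.8 RPKM in WT and 29.4 and 42.7 in JMJD1B-/-. Both JMJD1B-/- values of Slc38a2 were below WT, with a log2 fold change of -0.37 ± 0.22 (SE) and an unadjusted p of 0.140. It was -0.10 without JMJD1B-/- replicate 1 and -0.64, with a call, without JMJD1B-/- replicate 2. Slc25a4, a second ADP and ATP exchanger, overlapped, with 37.3 and 38.4 RPKM in WT and 24.6 and 44.98 in JMJD1B-/-. Slc16a1, which carries lactate and pyruvate with a proton, also overlapped, with 27.2 and 41.5 RPKM in WT and 40.0 and 58.7 in JMJD1B-/-. The order of Slc25a5 and Slc25a3 was not separated by the libraries of WT, which overlapped between the genes, whereas both stood apart from every other carrier.

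**Figure D1:**
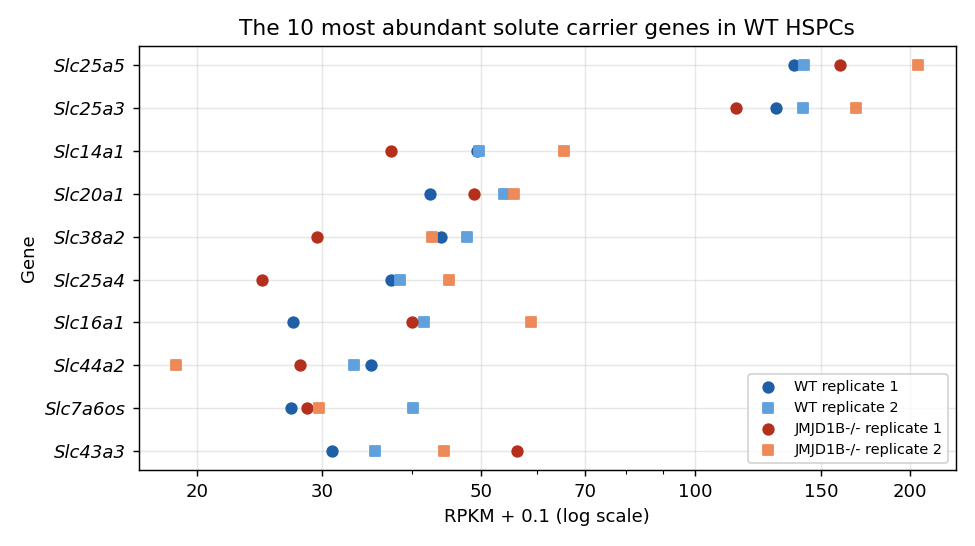
RPKM + 0.1 (log scale) of the 10 carriers with the highest mean RPKM over the WT libraries, 1 point per library. Slc25a5 and Slc25a3 lie above 100 RPKM in every library, and the libraries of both genotypes overlap for 6 of the genes plotted, while Slc44a2 and Slc38a2 lie lower and Slc43a3 and Slc25a5 higher in both JMJD1B-/- libraries.

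Between genotypes, limma on log2(RPKM + 0.1) gave 12 carriers that were lower and 9 that were higher in JMJD1B-/-, of 171 tested, each with an unadjusted p under 0.05. The carriers called lower included the serotonin transporter Slc6a4, the neutral amino acid exchanger Slc7a8, the nucleoside pump Slc28a2 and the 3 genes listed under family 24, which are exchangers of calcium for sodium. Those called higher included the proline transporter Slc6a20a, the zinc and manganese importer Slc39a8 and the nucleoside transporter Slc29a1. In all, 12.3% of the carriers were called, against 10.1% of the 11863 genes tested. By direction, 7.02% were called lower, against 6.33% of all genes, and 5.26% higher, against 3.81%. After Benjamini-Hochberg adjustment over all genes no carrier passed 0.05 with limma, the lowest adjusted p being 0.197, whereas 0.0421% of all genes (5 genes) did. By the gene-by-gene test 12 carriers (7.02%, against 7.25% of all genes) had an unadjusted p under 0.05 and none an adjusted p under 0.05. When a library is left out, the genotype left with 1 library is assumed to vary like the other. The counts of such fits rest on the spread of that other genotype. Without JMJD1B-/- replicate 1, 9 carriers had an adjusted p under 0.05 by limma, among 630 genes in all, and without JMJD1B-/- replicate 2, 14 did, among 669. None did without either WT library.

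In 34 of the 171 carriers neither JMJD1B-/- library reached the lower WT value (19.9%, against 22.7% of all genes) and in 31 both exceeded the higher WT value (18.1%, against 20.1%). The median log2 fold change of the carriers was -0.029, against -0.025 over all genes tested, and the SE of a single carrier ran from 0.19 to 1.13 with a median of 0.35. The carriers as a whole thus had a share of calls near that of the table. The number called depended on single libraries. Without WT replicate 1, 2 carriers were lower and 3 higher. Without WT replicate 2, 4 were lower and 7 higher. Without JMJD1B-/- replicate 1, 15 were lower and 26 higher, and without JMJD1B-/- replicate 2, 35 were lower and 12 higher. The whole table moved in the same way, with 2.53%, 4.4%, 21.6% and 21.5% of all genes called in these 4 fits, against 2.92%, 6.43%, 23.98% and 27.5% of the carriers. Of the 21 genes called with all libraries, 4, 7, 18 and 17 were still called without these libraries, in the order given, and none changed sign. As the genotypes did not overlap in any called carrier, leaving out 1 library could not change its sign. The table lists only genes that reach 1 RPKM in a library, so a gene can be listed through a single genotype. Of the carriers tested, 8 were listed through WT alone and 6 through JMJD1B-/- alone, among them the called Slc2a6 and Slc6a20a. Of the 157 carriers that reached it in both genotypes, 11 were lower (7.01%, against 5.98% of all such genes) and 8 higher (5.10%, against 3.82%). Slc6a4, Slc6a20a and Slc39a8 were called under each of the 13 alternatives tried.

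**Figure D2:**
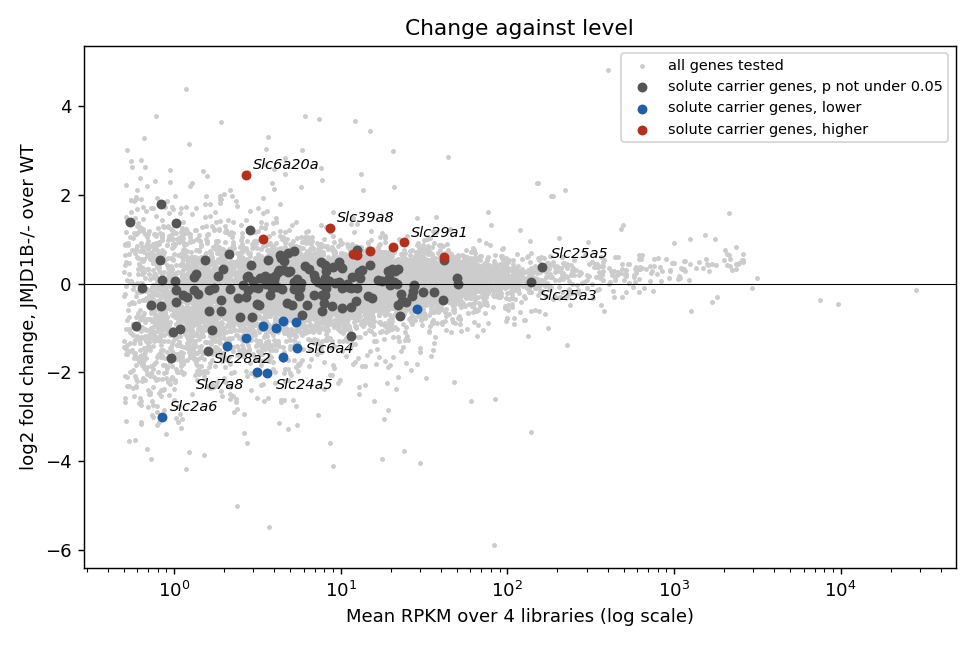
Log2 fold change of JMJD1B-/- over WT against the mean RPKM over 4 libraries (log scale), for all 11863 genes tested in grey and the 171 carriers tested in dark grey, blue (called lower) and red (called higher). The called carriers lie within the cloud of all genes, and the most abundant carriers, Slc25a5 and Slc25a3, lie at 0.37 and 0.030.

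By substrate, the counts are small and are to be read against the 6.33% of all genes that were called lower and the 3.81% called higher. Classes follow the family number, so the class of amino acid and peptide carriers also holds carriers of other substrates. It had 4 called lower, among them the serotonin transporter Slc6a4, and 4 called higher, of 31. The carriers of inorganic ions and protons had 4 lower and none higher of 22. Lipid, bile acid and choline carriers had 1 lower of 9, and zinc and other metal carriers had 1 higher of 23. Mitochondrial carriers had 1 each way of 36, carriers of nucleosides, nucleotide sugars and vitamins 1 each way of 15, and carriers of sugars and monocarboxylates 1 each way of 20. Carriers of organic ions and vesicular carriers had 1 higher of 10, and neither the urea transporter nor the 4 genes of other proteins was called. The class medians of the log2 fold change ran from -0.27 for lipid carriers to 0.094 for mitochondrial carriers. Single libraries moved these counts and medians. The inorganic ion carriers had 1 lower without WT replicate 1, none without WT replicate 2, 4 lower and 1 higher without JMJD1B-/- replicate 1, and 9 lower without JMJD1B-/- replicate 2. The amino acid carriers had 1 lower and 2 higher without WT replicate 1, 4 and 3 without WT replicate 2, 3 and 6 without JMJD1B-/- replicate 1, and 9 and 4 without JMJD1B-/- replicate 2. Over the leave-one-out fits that of the inorganic ion carriers stayed between -0.50 and -0.13 and that of the lipid carriers between -0.42 and -0.11. Every other class median changed sign without some library. That of the amino acid carriers, -0.24 with all libraries, was 0.11 without JMJD1B-/- replicate 1, and that of the mitochondrial carriers was -0.031 without JMJD1B-/- replicate 2. The medians ran from -0.25 to 0.46 for the nucleoside class, from -0.23 to 0.17 for the sugar class, from -0.36 to 0.19 for the organic ion class and from -0.11 to 0.15 for the metal class.

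**Figure D3:**
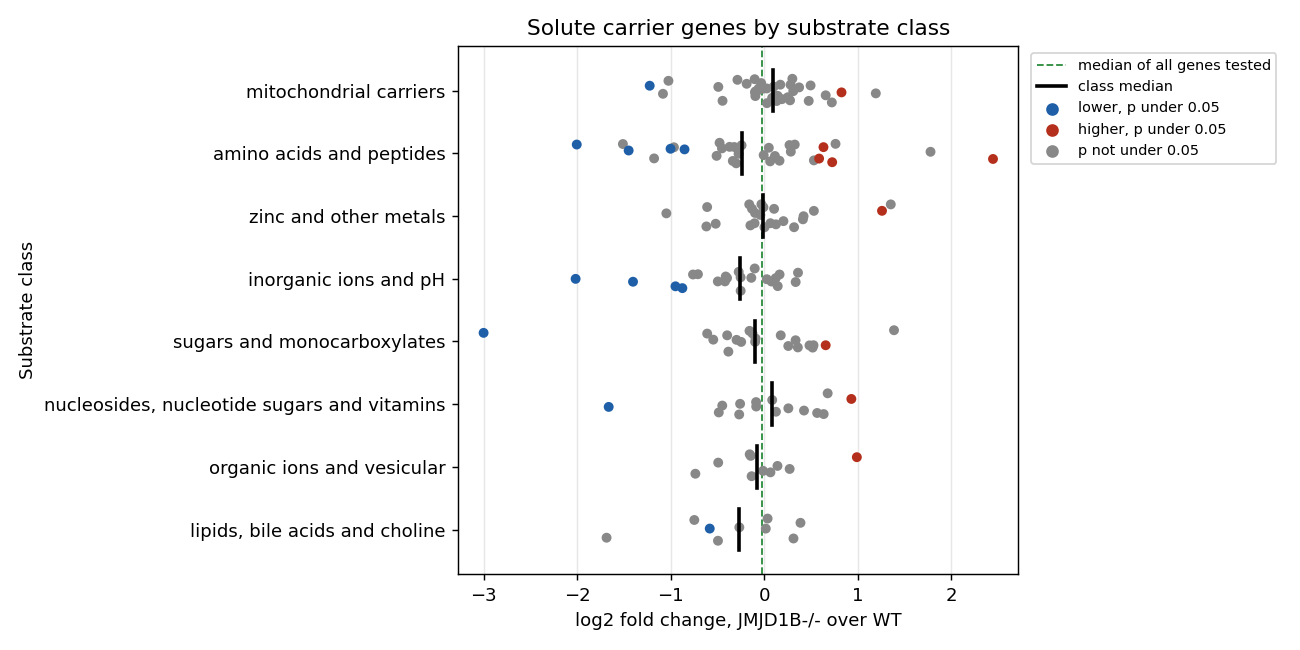
Log2 fold change of JMJD1B-/- over WT for each carrier tested, by substrate class, with the class median as a black line and the median of all genes as a dashed line. The urea transporter and the 4 genes of other proteins are not plotted. The inorganic ion class holds 4 blue points and no red one, and the amino acid class holds 4 of each.

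Among the amino acid carriers, Slc6a20a, a sodium-dependent transporter of proline and other imino acids, was near the lower end of detection in WT, at 0.944 and 0.598 RPKM, and read 5.63 and 3.68 in JMJD1B-/-. The genotypes did not overlap, with a log2 fold change of 2.45 ± 0.49 (SE), an unadjusted p of 0.00133 and an adjusted p of 0.197 by limma. Both WT values are under the 1 RPKM a gene must reach to be listed, so Slc6a20a is in the table through its JMJD1B-/- values alone, and a gene listed in this way had to be higher there. Its neighbour and close relative Slc6a20b read 0.491 and 0.185 RPKM in WT and 1.64 and 1.04 in JMJD1B-/-, with a log2 fold change of 1.78 ± 0.83 (SE) and an unadjusted p of 0.0666, and was listed through JMJD1B-/- alone as well. These genes are similar in sequence, and how reads shared between them were counted is not given in the sources used here, so their values may not be independent.

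Slc7a8 encodes a light chain of the neutral amino acid exchangers, which reach the cell surface bound to the heavy chain Slc3a2. It read 6.43 and 3.90 RPKM in WT and 1.28 and 1.08 in JMJD1B-/-. The genotypes did not overlap, with a log2 fold change of -2.004 ± 0.43 (SE), an unadjusted p of 0.00204 and an adjusted p of 0.211 by limma. The heavy chain Slc3a2 overlapped, with 24.5 and 34.6 RPKM in WT and 21.5 and 26.9 in JMJD1B-/-. So did Slc7a5, the light chain for large neutral amino acids such as leucine, with 16.4 and 21.5 RPKM in WT and 19.03 and 27.5 in JMJD1B-/-. Of the summed RPKM of the light chains Slc7a5, Slc7a6, Slc7a7 and Slc7a8, Slc7a8 took 20.01% and 11.5% in WT and 4.77% and 2.92% in JMJD1B-/-. Slc7a5 took 51.0% and 63.6% in WT and 70.9% and 74.5% in JMJD1B-/-. The sum itself overlapped, at 32.1 and 33.8 RPKM in WT and 26.8 and 36.9 in JMJD1B-/-. Without WT replicate 1 the call on Slc7a8 was lost, at a log2 fold change of -1.65.

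Slc6a4, the serotonin transporter, belongs to family 6 with Slc6a20a and was called in the other direction. It read 7.82 and 8.23 RPKM in WT and 3.22 and 2.57 in JMJD1B-/-, with no overlap. Its log2 fold change was -1.45 ± 0.30 (SE), with an unadjusted p of 0.00157 and an adjusted p of 0.204 by limma. Over the 4 leave-one-out fits it stayed between -1.61 and -1.29. Slc18a2, which loads serotonin, histamine and other monoamines into vesicles, was more abundant and overlapped, at 33.5 and 21.9 RPKM in WT, 10.2 in JMJD1B-/- replicate 1 and 25.7 in JMJD1B-/- replicate 2. Its log2 fold change was -0.74 ± 0.42 (SE), with an unadjusted p of 0.124, and single libraries moved it, to -0.43 without WT replicate 1, -0.072 without JMJD1B-/- replicate 1 and -1.40 without JMJD1B-/- replicate 2, where it was called. Basophil and mast cell markers (7 of 8 called lower), among them the protease gene Prss34 and the Fc receptor gene Fcer1a, and markers of megakaryocytes (5 of 7), the source of platelets, were lower in the same libraries, and their part in the values of Slc6a4 and Slc18a2 was not tested.

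Both listed members of family 36, proton-coupled amino acid transporters, were called lower. Slc36a4 read 6.09 and 4.89 RPKM in WT and 3.20 and 2.24 in JMJD1B-/-. Slc36a1, found on lysosomes as well as at the cell surface, read 6.19 and 5.50 RPKM in WT and 2.64 and 3.85 in JMJD1B-/-. Neither overlapped, with log2 fold changes of -1.001 ± 0.35 and -0.85 ± 0.33 (SE). Neither was called without WT replicate 1 (-0.84 for Slc36a4 and -0.77 for Slc36a1) or without WT replicate 2 (-1.16 and -0.94), and Slc36a1 was not without JMJD1B-/- replicate 1, at -0.59.

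The other 3 amino acid family members called higher were more abundant. Slc43a3, placed here by its family but known as a carrier of purine nucleobases, read 30.9 and 35.5 RPKM in WT and 56.1 and 44.3 in JMJD1B-/-. Slc43a1, a facilitative transporter of large neutral amino acids, read 8.68 and 14.04 RPKM in WT and 15.2 and 22.2 in JMJD1B-/-. The genotypes did not overlap for either, with log2 fold changes of 0.59 ± 0.20 and 0.73 ± 0.31 (SE), and 1 annotated gene, Rtn4rl2, lies between them. Slc7a1, the transporter of arginine, lysine and ornithine, read 9.13 and 10.5 RPKM in WT and 15.1 and 15.5 in JMJD1B-/-, with no overlap and a log2 fold change of 0.63 ± 0.22 (SE). Slc16a10, placed by family with the monocarboxylate carriers, transports aromatic amino acids, and read 8.41 and 10.02 RPKM in WT and 13.7 and 15.4 in JMJD1B-/-. It did not overlap either, with a log2 fold change of 0.66 ± 0.23 (SE). The unadjusted p of these 4 genes ran from 0.0203 to 0.0471, and without WT replicate 1 none of them was called. Slc43a1 alone was called without WT replicate 2, at 1.07, and without JMJD1B-/- replicate 2 it was not, at 0.45. Slc43a3 was not called without JMJD1B-/- replicate 1, at 0.42.

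Among the nucleoside carriers 1 was called in each direction. Slc29a1, an equilibrative transporter that lets nucleosides pass down their gradient, read 13.8 and 19.3 RPKM in WT and 28.8 and 33.9 in JMJD1B-/-. No library of one genotype overlapped the other, with a log2 fold change of 0.93 ± 0.23 (SE), an unadjusted p of 0.00444 and an adjusted p of 0.269 by limma. Slc28a2, which pumps purine nucleosides in with sodium, read 6.74 and 6.53 RPKM in WT and 3.61 and 1.12 in JMJD1B-/-. The genotypes were separate, with a log2 fold change of -1.66 ± 0.53 (SE), an unadjusted p of 0.0148 and an adjusted p of 0.389 by limma. Of the summed RPKM of Slc28a2, Slc29a1, Slc29a2 and Slc29a3, Slc29a1 took 50.7% and 58.2% in WT and 76.8% and 82.7% in JMJD1B-/-, and Slc28a2 took 24.7% and 19.7% in WT and 9.61% and 2.74% in JMJD1B-/-. Slc29a3, a transporter of lysosomes, took 20.5% and 19.3% in WT and 12.9% and 9.09% in JMJD1B-/-, and was not called (log2 fold change -0.48, unadjusted p 0.149). Erythroid markers were higher in the same JMJD1B-/- libraries, and their part in the value of Slc29a1 was not tested. Without WT replicate 1 Slc29a1 was at 0.69 and Slc28a2 at -1.64, and neither was called. Slc28a2 was also not called without WT replicate 2, and its log2 fold change was -0.86 without JMJD1B-/- replicate 2. Slc28a2 lies next to its relative Slc28a2b, and reads that fit both would be counted in a way not given in the sources used here.

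**Figure D4:**
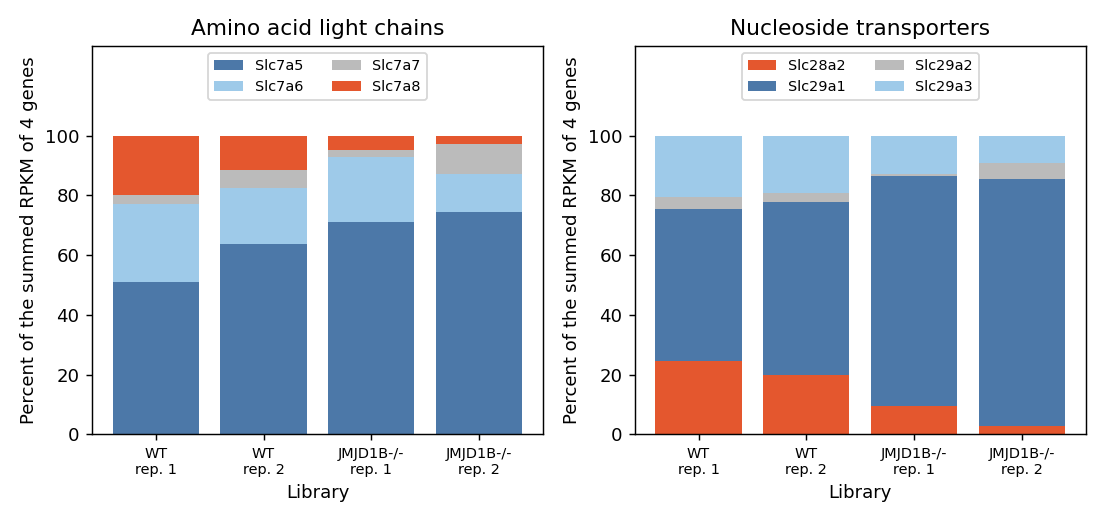
Percent of the summed RPKM of 4 light chains of amino acid exchangers (left) and of 4 nucleoside transporters (right), in each of the 4 libraries. The part of Slc7a8 is at least 11.5% in both WT libraries and at most 4.77% in both JMJD1B-/- libraries, and the part of Slc29a1 is at most 58.2% in WT and at least 76.8% in JMJD1B-/-.

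Of the inorganic ion carriers, the 3 genes listed under family 24, all exchangers of calcium for sodium, were called lower. Slc24a5 and Slc24a3 also move potassium, whereas Slc24a6 is an older name of Slc8b1, which belongs to another family. Slc24a5, known for its part in pigmentation, read 4.68 and 6.81 RPKM in WT and 0.836 and 2.06 in JMJD1B-/-. The genotypes did not overlap, with a log2 fold change of -2.02 ± 0.50 (SE), an unadjusted p of 0.00449 and an adjusted p of 0.269 by limma. Its annotation overlaps that of Myef2, which read 27.4 and 29.6 RPKM in WT and 20.2 and 30.9 in JMJD1B-/-, and reads from the shared stretch cannot be told apart unless the counting used strand. Slc24a3 read 4.54 and 4.46 RPKM in WT and 1.70 and 3.06 in JMJD1B-/-. Slc24a6, the sodium and calcium exchanger of mitochondria, read 8.45 and 5.53 RPKM in WT and 4.57 and 2.97 in JMJD1B-/-. Neither overlapped, with log2 fold changes of -0.95 ± 0.40 and -0.87 ± 0.36 (SE). Slc9a7, a sodium and proton exchanger of the Golgi that lies on the X chromosome, read 2.88 and 3.28 RPKM in WT and 1.07 and 1.13 in JMJD1B-/-. JMJD1B-/- and WT values were apart, with a log2 fold change of -1.40 ± 0.45 (SE) and an unadjusted p of 0.0151. Xist was high in WT replicate 2 alone, and the part of sex in the value of Slc9a7 was not tested. Without WT replicate 1 only Slc24a5 of these 4 was called, and without WT replicate 2 none was. The log2 fold change of Slc24a3 was -0.54 without JMJD1B-/- replicate 1 and that of Slc24a6 was -0.57 without JMJD1B-/- replicate 2, both without a call.

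Among metal carriers, Slc39a8, which imports zinc, manganese and other divalent metals, read 4.08 and 6.13 RPKM in WT and 11.9 and 12.4 in JMJD1B-/-. Its genotypes did not overlap, with a log2 fold change of 1.26 ± 0.28 (SE), an unadjusted p of 0.00261 and an adjusted p of 0.230 by limma. Over the leave-one-out fits it stayed between 0.97 and 1.55. It was the single one of 10 Slc39a zinc importers to be called. Slc39a7, the most abundant of them and a carrier of the endoplasmic reticulum, overlapped with 28.3 and 29.2 RPKM in WT and 22.4 and 29.6 in JMJD1B-/-. None of the 8 Slc30a zinc exporters was called, and their sum overlapped, at 62.5 and 64.7 RPKM in WT and 59.9 and 75.6 in JMJD1B-/-. None of the 3 listed genes of the metallothionein and zinc response was called.

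In mitochondria, Slc25a21, the carrier of 2-oxoadipate, read 10.7 and 19.6 RPKM in WT and 23.2 and 28.6 in JMJD1B-/-. There was no overlap, with a log2 fold change of 0.83 ± 0.31 (SE) and an unadjusted p of 0.0292. Slc25a27, a relative of the uncoupling proteins, read 4.43 and 3.22 RPKM in WT and 1.29 and 1.88 in JMJD1B-/-. No library of one genotype overlapped the other, with a log2 fold change of -1.22 ± 0.42 (SE) and an unadjusted p of 0.0224. Without WT replicate 1 neither was called, with Slc25a21 at 0.39 and Slc25a27 at -1.0002. Slc25a21 was also not called without JMJD1B-/- replicate 2 (0.68), nor Slc25a27 without WT replicate 2 (-1.45). The 36 mitochondrial carriers summed to 570 and 589 RPKM in WT and to 558 and 746 in JMJD1B-/-, which overlapped.

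Single carriers of other substrates were called as well. Slc44a2, a choline transporter-like protein, read 35.04 and 33.1 RPKM in WT and 27.8 and 18.6 in JMJD1B-/-. The genotypes were separate, with a log2 fold change of -0.58 ± 0.23 (SE), and was not called without WT replicate 1, WT replicate 2 or JMJD1B-/- replicate 2, at -0.29 in the last. Slc22a4, a transporter of ergothioneine, read 2.48 and 2.07 RPKM in WT and 4.64 and 4.56 in JMJD1B-/-. JMJD1B-/- and WT values were apart, with a log2 fold change of 0.99 ± 0.35 (SE), and was not called without either WT library. Slc2a6, a hexose transporter of family 2 named here after its values were seen, read 1.40 and 1.70 RPKM in WT and was listed at 0 in JMJD1B-/- replicate 1 and at 0.320 in JMJD1B-/- replicate 2. The 0 falls in the library in which 3 reads on 1 kb are worth 0.491 RPKM, and the gene is in the table through WT alone. Its log2 fold change of -2.9996 depended on the pseudocount, ranging from -4.75 to -1.15, and the call was lost with a pseudocount of 0.01, by the gene-by-gene test and without either WT library. Slc22a13b and Slc27a2 were under a mean of 0.5 RPKM and were not tested. Slc22a13b read 1.02 and 0.185 RPKM in WT and 0 and 0.607 in JMJD1B-/-, and Slc27a2 read 0.218 and 0.264 RPKM in WT and 1.06 and 0.0412 in JMJD1B-/-.

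**Figure D5:**
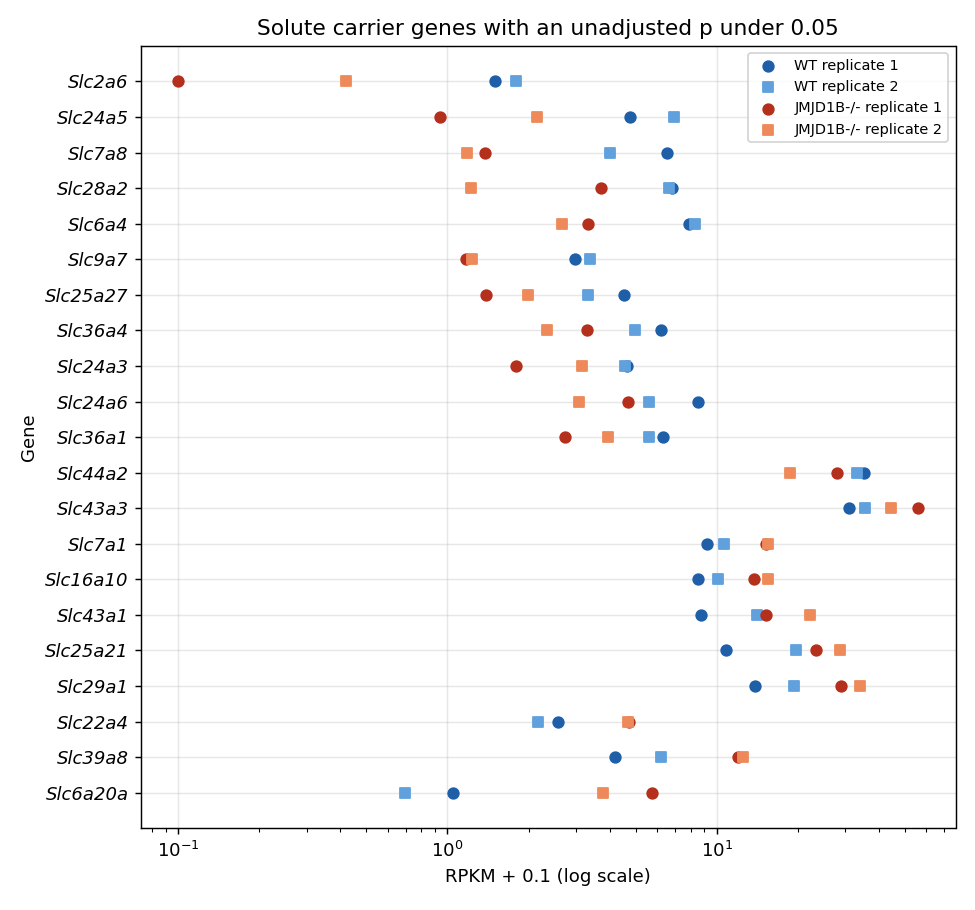
RPKM + 0.1 (log scale) of the 21 called carriers, 1 point per library, ordered by log2 fold change from the lowest at the top. The WT points of the upper 12 genes lie to the right of the JMJD1B-/- points and those of the lower 9 genes to the left.

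Of the genes that work with these carriers, Bsg was called higher and Emb lower. Bsg, the chaperone that brings the lactate carriers Slc16a1 and Slc16a3 to the surface, read 58.3 and 64.5 RPKM in WT and 84.2 and 97.4 in JMJD1B-/-. Its genotypes did not overlap, with a log2 fold change of 0.56 ± 0.18 (SE), an unadjusted p of 0.0150 and an adjusted p of 0.389 by limma. Bsg was not called without WT replicate 1 (0.49), without WT replicate 2 (0.63) or by limma without a trend. Emb, a related chaperone, read 69.0 and 77.6 RPKM in WT and 60.2 and 21.3 in JMJD1B-/-, with a log2 fold change of -1.03 ± 0.43 (SE) and an unadjusted p of 0.0448. Without JMJD1B-/- replicate 2 the change of Emb was -0.28, without JMJD1B-/- replicate 1 it was -1.78, and it was called in the second of these fits and not without either WT library. The lists that follow are to be read against 6.33% of all genes called lower, 3.81% called higher and 20.1% above both WT libraries. Of 26 other transporters outside the name rule, 2 were called lower, Slco4a1 and Slc35c2, and 2 higher, Sfxn2 and Slc35b2. Of 15 genes of the amino acid response, none was lower and 2 were higher. These were Sesn2, a sensor of leucine, at 2.33 and 1.93 RPKM in WT and 3.48 and 4.69 in JMJD1B-/-, and Mthfd2, an enzyme of mitochondrial folate metabolism, at 6.59 and 9.16 RPKM in WT and 11.7 and 13.3 in JMJD1B-/-. Of 12 genes of the glutathione and cystine response, 3 were called higher and none lower, and 8 did not overlap and were higher in JMJD1B-/-. The 3 called were Nfe2l2, the transcription factor of this response, Gclm, a subunit of the enzyme that starts glutathione synthesis, and Nqo1, a quinone reductase, with log2 fold changes of 0.47, 0.44 and 0.80. Of Emb and the 9 genes called in these lists, none was called without WT replicate 1, 2 without WT replicate 2, 8 when JMJD1B-/- replicate 1 was left out, and 4 when JMJD1B-/- replicate 2 was. The cystine carrier Slc7a11 was not analysed here.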

How the data were processed

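The authors deposited 1 table of RPKM for the RNA-seq libraries, with 1 added to each value. The submitters' processing notes name TopHat2, Novoalign and mm9, without a role for each, and the labels name polyA RNA and a TruSeq kit. The counting program and its use of strand are not given in the sources used here. The added 1 was subtracted, and 84 entries that share 42 names were averaged, giving 11982 names of 12024 entries. Genes whose highest RPKM was under 1 are not in the table and were not analysed here. Depth was estimated from whole-number ratios of values under 3 RPKM and scaled by 9 genes whose lengths gave the same depth. It is an estimate, and no counts were recovered.

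The test used log2(RPKM + 0.1) and genes whose mean RPKM reached 0.5. This scale understates the change of low genes. It was run with limma 3.58.1 in R 4.3.3 (eBayes with a trend, 2 against 2 libraries, 2-sided), with Benjamini-Hochberg adjustment over 11863 genes. The script was checked on simulated data. Substrate classes followed the family number. The genes named were those called, with an average of 1 RPKM or more and no overlap (at most 12 each way), the 10 most abundant carriers in WT, the most abundant of each class, and Slc3a2, Slc7a5, Slc7a11 and Bsg. Genes added for their neighbourhood, shares or lists were chosen later. The members and lists were chosen with earlier results of these data known. Of the 173 names, 172 matched a RefSeq symbol and 1 a synonym. Promoter sequences are from RefSeq (GRCm38.p6), a build other than that of the reads. The alternatives were other pseudocounts, filters, scalings and tests, a replicate block, and each library left out. ChIP-seq files did not enter these results. Python 3.11.15, numpy 2.4.6, pandas 2.3.3 and matplotlib 3.10.9 made tables and figures.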

Additional observations from a re-analysis of the deposited data

How the results depend on the processing

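With 2 libraries per genotype and JMJD1B-/- replicate 1 at 0.349 of the depth of WT replicate 1, the calls on carriers rest on unadjusted p-values. None of the 21 called carriers changed sign under the 13 alternatives in which they were tested. That was all 13 for 20 of them, and Slc2a6 was left out by the filter at a mean of 1 RPKM. The genotypes overlapped in none of these carriers, so only the scalings could have changed a sign. Other pseudocounts, filters and tests, the replicate block and leaving out 1 library could not. Of the 21, 3 were called under all 13. Without a trend 16 of the 21 were still called, and by the gene-by-gene test 8, where 5 carriers were lower in all and 7 higher. Median-ratio scaling gave 10 lower and 11 higher carriers (12.3%, against 11.6% of all genes called), and quantile normalization 10 and 13 (13.5%, against 11.6%), where the median of the carriers was 0.083 and that of all genes 0.015. Of all called genes 62.4% were lower, against 54.3% with median-ratio scaling and 51.7% after quantile normalization. The log2 fold change of Kdm3b was no longer past the adjusted threshold with median-ratio scaling (-2.63), quantile normalization (-2.59), no trend (-2.65) or the gene-by-gene test (-2.65). Slc14a1 changed sign with median-ratio scaling (0.0082) and Slc25a3 with quantile normalization (-0.067).

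Leaving out 1 library gave 177 to 1819 genes lower and 123 to 1258 higher over the whole table, 2 to 35 carriers lower and 3 to 26 higher, a median of the carriers of -0.17 to 0.13, and a log2 fold change of Kdm3b of -2.82 to -2.47, which was not past the adjusted threshold without WT replicate 1 or without WT replicate 2. Of the 150 uncalled carriers 83 changed sign without 1 library. Of the 12 of them named by rule, 6 did, Slc25a3 (-0.25 to 0.31), Slc20a1 (-0.050 to 0.30), Slc14a1 (-0.41 to 0.40), Slc7a6os (-0.47 to 0.10), Slc25a4 (-0.62 to 0.25) and Slc39a7 (-0.36 to 0.041). The cause was not tested. Where 1 library is left of a genotype, it is assumed to vary like the other genotype.

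Same-numbered libraries showed no broad shared deviation, with a correlation of -0.054 across genes. This cannot exclude a pairing of the libraries, on which the labels are silent. With a replicate block 12 carriers were lower and 10 higher (12.9%, against 12.5% of all genes), of which 10 and 8 were among those called without it, and 256 genes passed the adjusted threshold in place of 5, 4 of them carriers (Slc24a5, Slc29a1, Slc39a8 and Slc6a20a).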

Other observations

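Some carriers differed more within a genotype than between genotypes. Of 160 tested carriers with a mean RPKM of at least 1, the WT libraries differed by over 2 times for 7 (4.38%, against 3.79% of all genes tested at that level) and the JMJD1B-/- libraries for 31 (19.4%, against 13.4%). Slc1a5, a glutamine transporter, read 35.4 RPKM in WT replicate 1 and 6.09 in WT replicate 2, with 17.2 and 18.4 in JMJD1B-/-. Slc15a2, which takes up small peptides with protons, read 25.2 and 7.40 RPKM in WT and 3.56 and 10.1 in JMJD1B-/-. Slc38a5, a glutamine and histidine transporter, read 5.83 and 12.8 RPKM in WT and 9.90 and 21.9 in JMJD1B-/-. In each of these the genotypes overlapped.

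Within JMJD1B-/-, 114 of the 160 carriers (71.3%, against 66.7% of all genes at that level) were lower in replicate 1, the shallower library, than in replicate 2, with a median log2 difference of 0.33 against 0.18 over all genes at that level. The folate transporter Slc19a1 read 5.85 and 17.2 RPKM there, against 11.5 and 9.90 in WT. Slc25a39, a mitochondrial carrier of glutathione, read 6.25 and 20.1 RPKM, against 12.5 and 11.5 in WT. Both lay on either side of the WT values. These genes were chosen after their values were seen.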
